A study of Caenorhabditis elegans with 2 samples.

Results

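The genes described here encode the proteins of the large subunit of the cytoplasmic ribosome in Caenorhabditis elegans. They are the 50 protein-coding genes named rpl or rla in the WBcel235 annotation, out of 19973 protein-coding genes on the nuclear chromosomes, and their values are peaks of CEH-100, a homeobox protein, from chromatin immunoprecipitation and sequencing (ChIP-seq). All animals were of strain RW12233, in which CRISPR was used to add TY1, EGFP and 3xFLAG tags to the endogenous ceh-100 gene (st12233). They were whole young adults, 64 hours old, from larvae synchronised by bleaching and starvation at the first larval stage, and chromatin was precipitated with an anti-GFP antibody. There is 1 group of 2 biological replicates and no second condition, so the comparisons are between genes and between replicates. In whole animals, strong binding in few cells and weak binding in many cannot be told apart.

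The large subunit joins amino acids into the growing protein, holds the tunnel through which that protein leaves, and carries a flexible stalk that receives the translation factors. Its protein genes are among the most actively transcribed in a growing animal, and the adult worm germ line needs many ribosomes to provision eggs. Many worm messages are trans-spliced, which replaces their first bases with a short leader, so that an annotated start can lie downstream of the place where transcription begins. Homeobox proteins bind short DNA words, many of which contain a TAAT core.

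A gene was counted as having a peak when the summit of a peak fell at most 500 bp from an annotated start, on either side. Of the 50 genes, 28 (56.0%) had a peak in the authors' conservative set, in which peaks are reproducible between the replicates, against 5.56% of all protein-coding genes. In the authors' other thresholded set the count was also 28, all of them the same genes, against 6.10% of all genes. The small subunit genes (rps) stood at 19 of 31 (61.3%) in the conservative set and at 20 of 31 (64.5%) in the other. Genes for proteins of the mitochondrial large subunit (mrpl) stood at 4 of 41 (9.76%) and 5 of 41 (12.2%). Under this rule the 2 cytoplasmic sets were thus close to each other and far above the share over all genes. The mitochondrial set was nearer to that share. Summits shared by an rpl gene with rps-10, rps-14 or rps-30 count in both cytoplasmic sets. With a stricter reproducibility threshold, or with the nearest gene only, the cytoplasmic sets were further apart, as given below. No test was made of these shares.

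The summit windows below reach 50 bp to each side of the summit, run along the strand of the gene, and are shown to let the words that recur at these genes be seen in place. The first 6 are the highest by signal, of which rpl-35 and rpl-7A hold none of the words, and the others were chosen for the words after these had been seen. Capitals mark the word CGAGTGT, the word ACCGTA or the word GGTCTCG, or a reverse complement of these. Sequence is that of the RefSeq copy of WBcel235, which has the coordinates of ce11.
rpl-35, chrIII:7854631-7854731, plus strand: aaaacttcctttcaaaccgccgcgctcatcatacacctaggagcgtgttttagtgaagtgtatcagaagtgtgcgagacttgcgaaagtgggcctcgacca
rpl-3, chrIII:3867522-3867622, plus strand: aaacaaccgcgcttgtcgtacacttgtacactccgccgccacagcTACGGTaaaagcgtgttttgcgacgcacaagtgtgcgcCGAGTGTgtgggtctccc
rpl-15, chrIV:654875-654975, minus strand: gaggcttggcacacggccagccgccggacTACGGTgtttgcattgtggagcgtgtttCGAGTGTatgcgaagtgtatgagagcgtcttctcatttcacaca
rpl-20, chrIV:4750025-4750125, minus strand: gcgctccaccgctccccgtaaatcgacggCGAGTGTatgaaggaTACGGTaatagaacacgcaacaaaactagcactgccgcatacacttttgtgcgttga
rpl-7A, chrIV:4390610-4390710, minus strand: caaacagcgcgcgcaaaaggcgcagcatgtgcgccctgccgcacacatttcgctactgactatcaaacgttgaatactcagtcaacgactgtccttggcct
rpl-22, chrII:5055329-5055429, plus strand: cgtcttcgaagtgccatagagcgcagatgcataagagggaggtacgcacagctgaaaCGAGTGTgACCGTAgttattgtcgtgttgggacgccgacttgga
rpl-29, chrIV:13881909-13882009, plus strand: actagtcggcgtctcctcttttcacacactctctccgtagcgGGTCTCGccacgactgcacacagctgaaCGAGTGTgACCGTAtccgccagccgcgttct
rpl-6, chrIII:7208062-7208162, plus strand: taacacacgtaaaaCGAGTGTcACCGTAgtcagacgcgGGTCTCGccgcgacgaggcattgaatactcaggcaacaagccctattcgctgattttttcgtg
rpl-11.2, chrX:2242957-2243057, minus strand: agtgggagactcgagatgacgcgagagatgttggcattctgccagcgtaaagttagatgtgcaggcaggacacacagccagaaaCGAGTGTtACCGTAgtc
rpl-38, chrV:15511784-15511884, plus strand: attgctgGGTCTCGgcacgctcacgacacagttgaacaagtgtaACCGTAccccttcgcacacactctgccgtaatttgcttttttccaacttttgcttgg
rpl-39, chrV:7776249-7776349, minus strand: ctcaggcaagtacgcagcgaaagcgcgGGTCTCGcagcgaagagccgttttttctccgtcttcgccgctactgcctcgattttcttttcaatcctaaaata

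Several windows hold both CGAGTGT and ACCGTA. At rpl-22, rpl-29, rpl-6 and rpl-11.2, GAGTGT is followed, with 1 base between, by the word ACCGTA, in the direction of the gene, and the window of rpl-24.1, not shown, holds the same arrangement. At rpl-3, rpl-15 and rpl-20 both words are present but apart, with ACCGTA on the other strand. Over the 28 windows, CGAGTGT occurred in 9 (32.1%), against 1.90% of the 1685 nuclear summit windows of the conservative set and 0.531% of windows 300 bp upstream of all protein-coding genes. ACCGTA occurred in 12 (42.9%), against 7.48% and 3.03%, and GGTCTCG in 8 (28.6%), against 6.65% and 1.51%. The nuclear summit windows include those of the ribosomal protein genes. With the windows of rpl, rla and rps genes left out, the shares were 1.28% for CGAGTGT, 6.58% for ACCGTA and 6.09% for GGTCTCG. At least 1 of these 3 words was present in 16 of the 28 windows, and 11 held at least 2. These last 2 counts were not made over all summit windows. Both strands were searched, and CGAGTGT overlaps GAGTGT by 6 bases. The words were chosen because they recur in these windows, so that their counts there are a description.

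The small subunit genes were not used to choose the words. In the 16 summit windows of rps genes that are not shared with an rpl gene, ACCGTA occurred in 6 (37.5%), GGTCTCG in 4 and CGAGTGT in 2 (12.5%). The close arrangement of GAGTGT and ACCGTA occurred in 5 of the 28 large subunit windows, in 2 of these 16 and in 0.712% of all nuclear summit windows. With the windows of rpl, rla and rps genes left out, the last share was 0.305%. On the nuclear chromosomes there are 34 places with this arrangement. Of these, 12 lie within 500 bp upstream of an rpl, rla or rps gene. They include the 5 large subunit windows in which the arrangement was noticed, so their nearness to summits was fixed in part by that choice. Of the other 22 places, 6 (27.3%) have a conservative summit within 100 bp, where 0.338% of the nuclear genome is within 100 bp of a summit. Many summits and many of the 34 places lie near gene starts, so the whole genome is an unlike baseline. Near starts, the share was taken by gene. Of 28 genes outside the rpl, rla and rps sets with the arrangement within 500 bp upstream, 13 (46.4%) had a peak. Over all genes outside these sets the share was 5.34%. The 28 include ify-1, C14B9.10 and Y71F9AL.9, which share both the place and the summit with an rpl gene, so they are not independent of the choice. The difference was not tested. A match to a word is a description of the sequence and not a binding site.

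The other words searched were rare at these summits. TAATTA, a common homeobox word, was in none of the 28 windows and in 1.78% of all nuclear summit windows, against 5.67% of the windows 300 bp upstream of all genes. TATAAA was also in none, against 4.81% of summit windows and 12.7% of upstream windows. TTTCAG, the usual end of a worm intron or trans-splice site, was in 1, against 8.72% and 18.5%, and CTGCGTCT was in 1, against 4.69% and 0.881%. The absence of these letters in a window says nothing of which factor was bound. The windows were rich in G and C, with a median of 51.5% (range 37.6 to 65.3) against 47.5% at all nuclear summits and 33.7% in the upstream windows of all genes. Soft-masked bases of the RefSeq sequence, which mark repeated or simple sequence, were present in 17 of the 28 windows (60.7%) and in 68.1% of all summit windows.

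The strongest peak of the set lay upstream of rpl-35, whose protein sits beside the exit of the peptide tunnel (WBGene00004449, chromosome III, peak 7854559 to 7854820). Signal, a unitless enrichment that the authors deposited for each peak, was 497 in replicate 1 and 507 in replicate 2, and 1004 in the conservative set, where this peak ranked 86 among 1707. Its summit was 453 bp upstream of the only annotated start, in intergenic sequence, and the summits of the replicates were 1 bp apart. The next was at rpl-3, whose protein reaches towards the peptidyl transferase centre (chromosome III, peak 3867418 to 3867707). It had 447 and 524 in replicates 1 and 2 and 970.1 in the conservative set, 282 bp upstream of a start. The replicates were thus close at both genes. Joint and single-replicate values are not on a common scale.

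A further 7 genes had joint signals above 300. At rpl-15 the replicates had 343 and 443 and the joint peak 785 (chromosome IV, peak 654801 to 655046). At rpl-20 they had 319 and 376, with 701 jointly, and at rpl-7A 249 and 288, with 535 jointly. Replicate 2 was the higher at each of these, by at most 1.29 times. At rpl-22 the values were 195 and 256 (joint 459), and at rpl-12 they were 173 and 182 (joint 359). The last 2 were rpl-41.2, with 182 and 146 (joint 325), and rpl-24.2, with 154 and 152 (joint 309). Every one of these 9 genes passed the threshold in both replicates, and a gap followed: the tenth gene, rla-1, had a joint signal of 200.5.

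**Figure D1:**
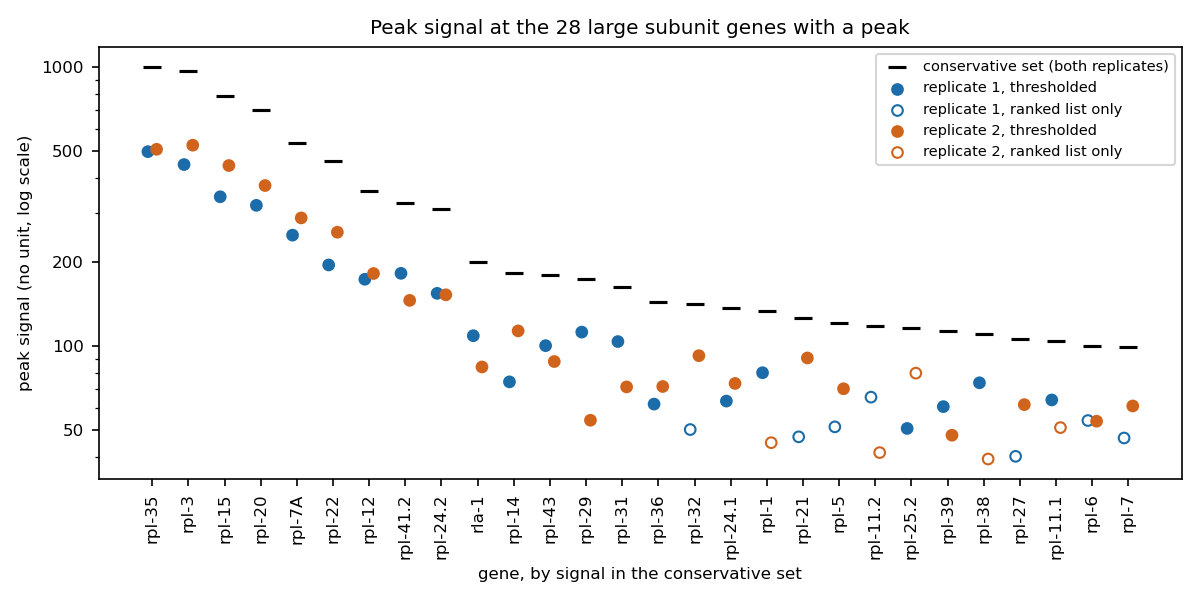
Peak signal (log axis, no unit) at the 28 genes with a peak, ordered by the signal of the conservative set (bars), with replicate 1 in blue and replicate 2 in orange; filled circles passed the threshold in that replicate and open circles were in its ranked list only. The first 9 genes lie above 300, the other 19 between 99.2 and 200.5, and open circles are found only among the genes below 150.

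Over the 28 genes the lowest signal was 99.2, the median 153 and the highest 1004. The median over all protein-coding genes with a peak was 155, over the 1685 nuclear peaks 134 and over the 19 rps genes 231. The typical height at the large subunit genes was thus close to that of all genes with a peak. The lowest 5 were rpl-38 (110.04), rpl-27 (105.6), rpl-11.1 (104), rpl-6 (100.07) and rpl-7 (99.2). The range in replicate 1 was 40.1 to 497 and in replicate 2 39.3 to 524. Replicate 1 was the higher at 12 genes and replicate 2 at 16, and the ratio of the higher to the lower had a median of 1.29. It was at most 1.5 at 19 genes and highest at rpl-29, where replicate 1 had 112 and replicate 2 had 54.1.

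The replicates' own lists named fewer genes than the joint set. The joint peak overlapped a thresholded peak of both replicates at 17 of the 28 genes, of replicate 1 alone at 4, of replicate 2 alone at 6, and of neither at rpl-11.2. With the 500 bp rule applied to each list, 21 of 50 genes (42.0%) had a peak in replicate 1, against 4.15% of all genes, and 24 of 50 (48.0%) in replicate 2, against 4.89%. At rpl-11.2 signals were 65.4 and 41.4 in the ranked lists, with a joint signal of 118 and a global irreproducible discovery rate (IDR, the share of peaks at least this strong that are not expected to repeat) of 0.0055. The highest global IDR among the nuclear peaks of the conservative set was 0.00999.

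By role in the ribosome, grouped after the values were known, peaks were present in each group looked at. The groups are small, of 1 to 8 genes. Of the 30 genes in no group, 17 also had a peak, and the share over all 50 genes was 56.0%. The stalk is built from the products of rla-0, rla-1 and rla-2 on a base that includes the product of rpl-12. Of these 4 genes, 2 had a peak. At rla-1 the summit lay inside the coding sequence, 108 bp downstream of the start, with 109 in replicate 1, 84.0 in replicate 2 and 200.5 jointly. The rla-0 gene had no summit nearer than 2256 bp and rla-2 none nearer than 16005 bp. Both had a weak peak in the joint ranked list within 500 bp, with signals of 37.9 (IDR 0.44) and 31.8 (IDR 0.798).

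The partners of 5S rRNA, which assemble with it before joining the subunit, all had a peak. For rpl-5 the replicates had 51.2 and 70.2 and the joint peak 121, with the summit 417 bp upstream. Of the paralogs for the other partner, rpl-11.2 was described above, with its summit 389 bp upstream, and rpl-11.1 had 64.0 and 50.9 (joint 104). The summit at rpl-11.1 was not upstream of it: it lay in intergenic sequence 164 bp past the 3' end of the gene and within 500 bp of an internal start only. With the first start of each gene alone, rpl-11.1 had no peak and the other 27 genes still had one, against 5.20% of all genes. At rpl-31 and rpl-32 the peak that remained was the weaker one upstream (110 and 96.4). The highest peak of these 2 genes lay within 500 bp of an internal start only.

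Of 4 genes whose proteins reach the peptidyl transferase centre or line the tunnel next to it, rpl-3 had a peak and rpl-2, rpl-4 and rpl-10 had none. For rpl-2 neither replicate had a summit within 500 bp even in its ranked list, and for rpl-10 replicate 2 alone had one, with a signal of 33.0. Around the exit of the tunnel 4 of 8 genes had a peak. After rpl-35 these were rpl-31, with 104 and 71.2 (joint 163), rpl-25.2, with 50.5 and 79.8 (joint 116), and rpl-39, with 60.5 and 47.8 (joint 113). The other 4 were rpl-17, rpl-19, rpl-25.1 and rpl-26. The gene rpl-1, for the protein of a mobile stalk on the other side of the subunit, had 80.1 and 44.9 (joint 134).

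Paralogs with the same number were alike in some cases and not in others. Both rpl-11 genes and both rpl-24 genes had a peak, and 1 of 2 did for rpl-25 and for rpl-41. Of the rpl-25 genes, rpl-25.2 on chromosome I had a peak 150 bp upstream and rpl-25.1 on chromosome X had its nearest summit 73965 bp away. At rpl-25.1 replicate 1 had 46.3 and replicate 2 18.8 in the ranked lists, and the joint ranked peak had an IDR of 0.65. Of the rpl-24 genes, rpl-24.1 had 63.4 and 73.3 (joint 137) in intergenic sequence 242 bp upstream. The summit of rpl-24.2, 152 bp upstream, lay in an intron of C03D6.1 on the other strand. The products of these genes differ in use: rpl-24.2 is the worm relative of a factor that acts during ribosome assembly.

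The paralogs rpl-41.1 and rpl-41.2 lie in tandem on chromosome I, 700 bp apart. The summit assigned to rpl-41.2 lay between them, 263 bp upstream of rpl-41.2 and 839 bp downstream of the start of rpl-41.1. A second conservative peak, with 98.1 and 85.3 in the replicates and 198 jointly, lay 67 bp past the 3' end of rpl-41.2, in a coding exon of zig-7. Within 500 bp of rpl-41.1 the ranked lists held 31.3 in replicate 1 and 26.1 in replicate 2. Of rpl-7 and rpl-7A, whose proteins are distinct despite their names, rpl-7A had the peak given above and rpl-7 had 46.7 and 60.9 (joint 99.2), the lowest of the 28.

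Of the 28 highest summits, 22 lay upstream of the gene, 2 inside it and 4 past its 3' end. The share upstream of the nearest start, 78.6%, was below that of all protein-coding genes with a peak (85.9%) and of rps genes (94.7%), without a test of the difference. By annotation 23 were intergenic, 3 in coding exons, 1 in an intron and 1 in a 5' untranslated region. The median position was -264.5 bp from the start (negative is upstream) and the median distance 297 bp, against 192.5 bp over all 1110 protein-coding genes with a peak, 279 bp for rps genes and 97 bp for the 4 mrpl genes. Between 200 and 450 bp upstream lay 17 of the 28 summits (60.7%), 78.9% of those of rps genes and 40.7% of those of all genes. The summit positions of the replicates differed by a median of 14.5 bp and by at most 66 bp, at rpl-43.

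**Figure D2:**
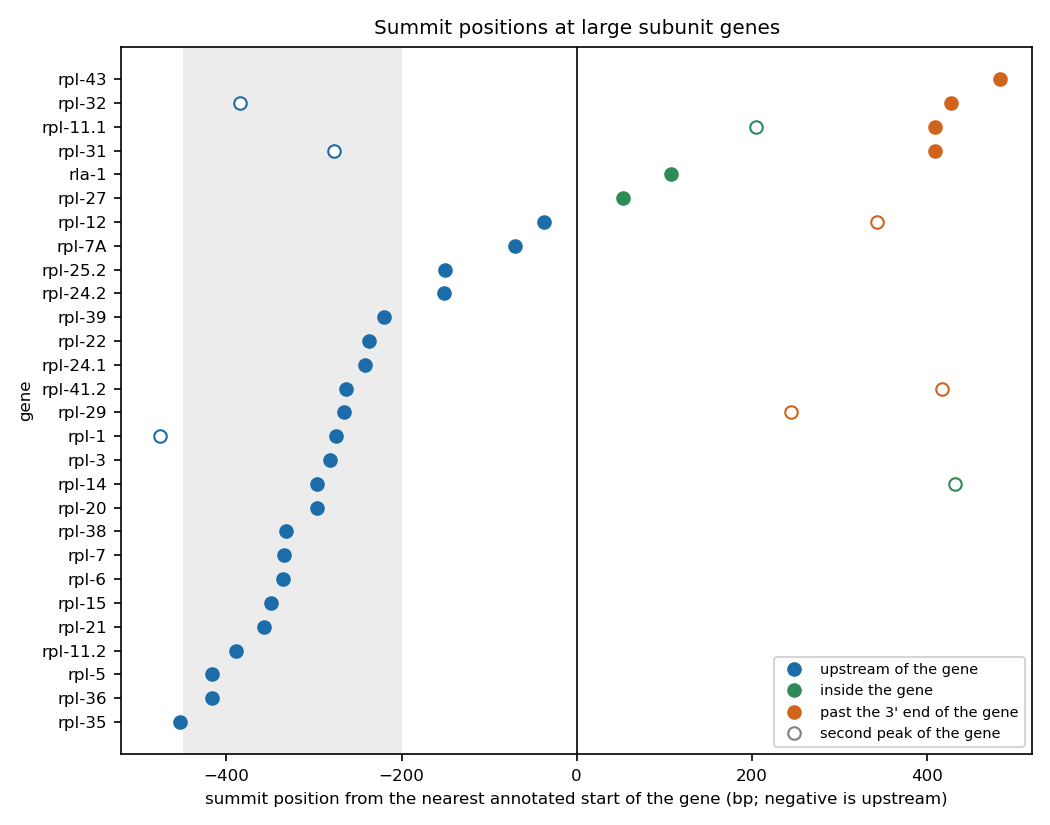
Position of each summit from the nearest annotated start of its gene (bp, negative is upstream) for the 28 genes with a peak, ordered by the highest peak; filled circles are the highest peak, open circles a second peak, and colour gives its place against the whole gene. The shaded band, 200 to 450 bp upstream, holds 17 of the 28 highest summits.

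The closest summits to a start were at rpl-12, 37 bp upstream, rpl-27, 53 bp downstream, and rpl-7A, 70 bp upstream. At these 3 genes alone did the peak interval cover an annotated start, 3 of 50 against 1.89% of all genes. Among the highest peaks of each gene, the summits farthest from a start were at rpl-43 (484 bp), rpl-35 (453 bp), rpl-32 (427 bp), and rpl-36 and rpl-5 (both 417 bp). The genes nearest outside the limit were rpl-36.A (679 bp), rpl-16 (835 bp, a peak with a signal of only 2.01), rpl-41.1 (839 bp), rpl-26 (969 bp) and rpl-19 (1032 bp). No gene of the set had its nearest summit between 484 and 679 bp from a start.

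The count moved with the distance allowed. With 200 bp, 6 of 50 genes had a peak, against 2.93% of all genes and 3 of 31 rps genes. With 300 bp the count was 17 (34.0%), against 4.19%, and with 1000 bp 32 (64.0%), against 7.28%. A stricter global IDR of at most 0.001 left 16 (32.0%), against 3.79% of all genes and 48.4% of rps genes. Leaving out summits within 250 bp of a tRNA, rRNA, snRNA or snoRNA gene left the count at 28, against 5.18% of all genes, although 5 of the 28 genes with a peak host a snoRNA gene. With each summit given only to the gene of the nearest start, 23 of 50 genes (46.0%) kept a peak, against 4.38% of all genes and 32.3% of rps genes. The 5 large subunit genes that lost their peak were rpl-20, rpl-21, rpl-22, rpl-36 and rpl-43.

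**Figure D3:**
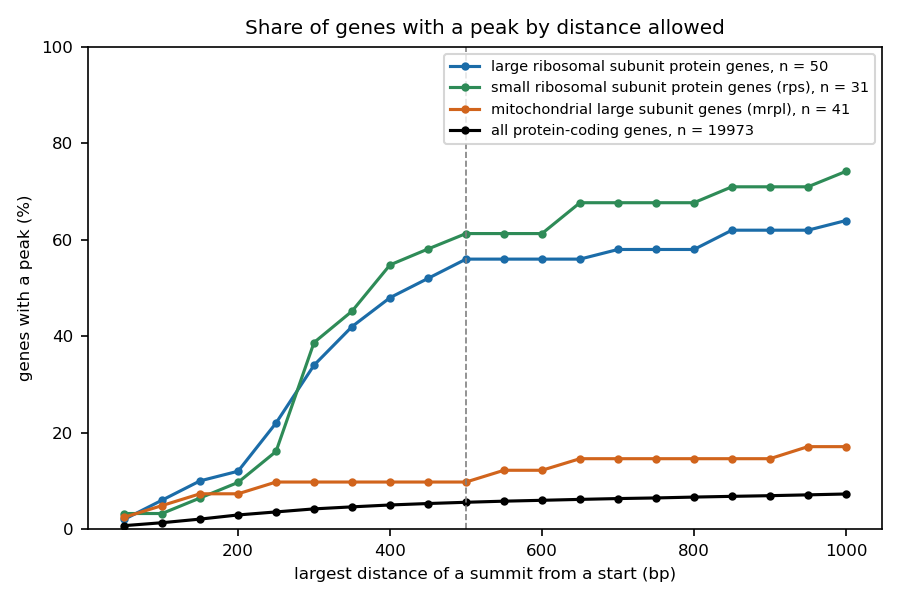
Share of genes with a conservative summit (%) by the largest distance allowed from a start (bp), for the 50 rpl and rla genes (blue), 31 rps genes (green), 41 mrpl genes (orange) and all 19973 protein-coding genes (black); the dashed line is the 500 bp rule. The blue line goes from 6 of 50 genes at 200 bp to 56.0% at 500 bp and 64.0% at 1000 bp, while the black line stays under 7.3%.

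A second conservative peak within 500 bp of a start was present at 8 of the 28 genes (28.6%). More than 1 peak was present at 7.66% of the 1110 protein-coding genes with a peak and at none of the 19 rps genes. At 5 of the 8 a summit upstream of the gene was joined by one past its 3' end, which was so at 6 of the 1110 genes, these 5 included. A summit past the 3' end can lie within 500 bp of a start only where that start is near the end of the gene. At rpl-12, rpl-29, rpl-31 and rpl-32 that start is an internal one, and the first start is more than 500 bp from the summit. At rpl-41.2 it is the only annotated start. The counts of genes with a second peak were not tested. At rpl-12, rpl-29 and rpl-41.2 the upstream peak was the higher. Past the 3' end, rpl-12 had a peak of 100.4, which lay 50 bp beyond the gene, and rpl-29 had one of 111, 116 bp beyond it in a coding exon of thoc-7. At rpl-31 and rpl-32 the peak past the 3' end was the higher, with 163 and 141, and the upstream peak had 110 and 96.4. The upstream peak of rpl-31 was 277 bp and that of rpl-32 385 bp from the start, so these genes too had a summit in the range common to the set. Support for the weaker peak of each pair varied. At rpl-29 and rpl-32 it overlapped a thresholded peak of neither replicate. It did so for replicate 1 only at rpl-12, for replicate 2 only at rpl-31 and for both at rpl-41.2. The genes are short, from 351 to 1065 bp for these 5, and the distance between their summits was 680 to 1186 bp. The second summits of rpl-14 (83.0) and rpl-11.1 (30.5) lay inside the gene. That of rpl-1 had a signal of 2.04. At both rpl-1 and rpl-11.1 the interval of the second peak overlaps that of the first, and the same replicate peaks match both.

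The peak was shared with another protein-coding gene at 12 of the 28 genes (42.9%), where 43.7% of all genes with a peak share it. In 11 of the 12 the neighbour is on the opposite strand and the summit lies between the starts. Ribosomal protein genes of both subunits stand in such pairs. The summit between rpl-39 and rps-30 was 220 bp from rpl-39 and 279 bp from rps-30, and that between rpl-24.1 and rps-10 242 and 368 bp. The summit between rpl-36 and rps-14 was nearer to rps-14 (246 bp) than to rpl-36 (417 bp), with 61.8 and 71.5 in the replicates and 143 jointly.

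The other divergent neighbours have various functions. Beside rpl-12 lies lin-54, for the DNA-binding protein of the DREAM complex, 356 bp from the summit. Beside rpl-7A lies set-21, of the SET domain family, at 184 bp, and beside rpl-22 lies ify-1, for the securin that holds back sister chromatid separation, at 200 bp. The cuticle collagen gene col-38 starts 422 bp from the summit upstream of rpl-5. The remaining neighbours were K11H12.8 beside rpl-15 (465 bp), Y17G9B.5 beside rpl-20 (165 bp), C14B9.10 beside rpl-21 (268 bp) and Y71F9AL.9 beside rpl-1 (349 bp). The single neighbour on the same strand was xrn-2, for a nuclear exoribonuclease. The summit counted for rpl-43, with 100.2 and 87.8 in the replicates and 179 jointly, lay 10 bp from the start of xrn-2, in its 5' untranslated region and past the 3' end of rpl-43. In 7 of the 12 cases the start of the rpl gene was the nearer.

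Non-coding genes lay within 250 bp of the summit at 7 of the 28 genes. They are annotated as ncRNA beside rpl-1, rpl-5, rpl-7, rpl-39, rpl-24.1 and rpl-11.2 and as lincRNA beside rpl-31 and rpl-11.2, with a piRNA gene also beside rpl-24.1. None is a tRNA, rRNA, snRNA or snoRNA gene. The same count was not made for all genes with a peak, so it is not known whether 7 of 28 is many or few.

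The 22 genes without a conservative peak mostly had weaker peaks below the threshold. In the joint ranked list, which holds 20827 nuclear peaks of every strength, 45 of the 50 genes had a summit within 500 bp, against 25.5% of all genes. For the ranked list of replicate 1 the count was 41 (82.0%), against 33.1%, and for that of replicate 2 it was 46 (92.0%), against 26.1%. Among the 22, joint signals ranged from 19.2 to 98.2 with a median of 56.2 over 17 genes, all below the lowest of the 28, and the lowest IDR per gene from 0.0143 to 0.798. The nearest to the threshold were rpl-23 (joint 95.6, IDR 0.0143), rpl-28 (86.8, IDR 0.0192) and rpl-13 (73.1, IDR 0.0286). Their summits lay at -283, -334 and -284 bp, and over the 17 genes 9 lay between 200 and 450 bp upstream.

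Further from the threshold, rpl-33 had 31.8 in replicate 1 and 61.5 in replicate 2 (joint 88.4) and was the only gene without a conservative peak that passed the threshold in a replicate. The highest joint signal of the 17 was that of rpl-19, 98.2 with an IDR of 0.137, from 63.7 in replicate 1 and 30.7 in replicate 2. The genes rpl-9, rpl-16, rpl-17, rpl-30, rpl-34, rpl-36.A, rpl-4 and rpl-41.1 had joint signals from 23.9 to 70.4. For rpl-10, rpl-18, rpl-26, rpl-37 and rpl-42 the joint ranked list had no summit within the limit. Of these, rpl-18 had 33.6 in replicate 2 only and rpl-37 27.4 in replicate 1 only. In neither replicate did rpl-2, rpl-26 or rpl-42 have a summit within the limit.

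**Figure D4:**
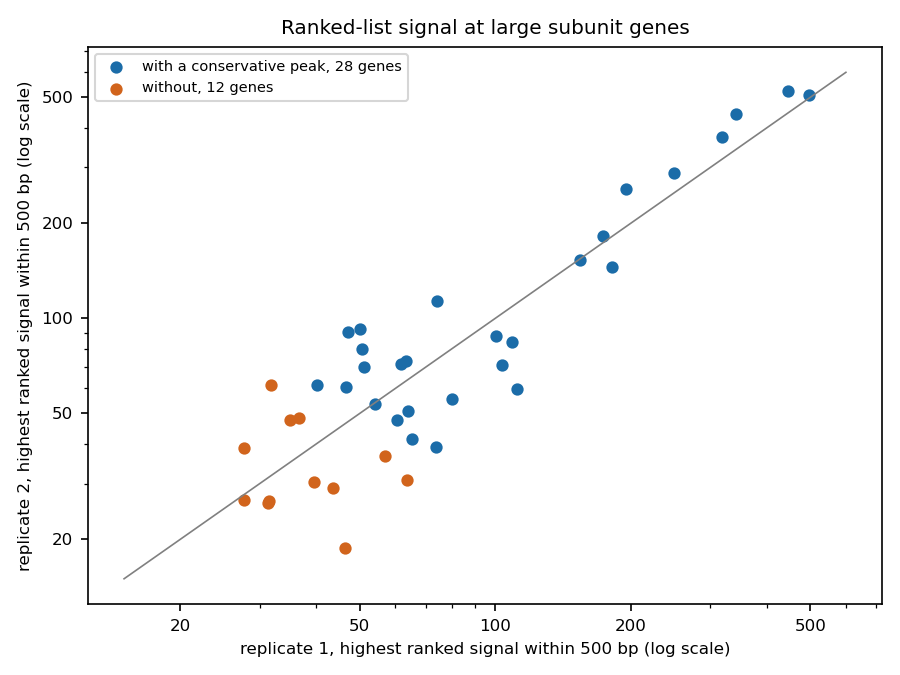
Highest signal within 500 bp of a start in the ranked list of replicate 1 (x axis) and of replicate 2 (y axis), both on log axes without a unit, for the 28 genes with a conservative peak (blue) and the 12 without one that have a value in both lists (orange); the line marks equal values. The orange points overlap the lower part of the blue ones, between 27.7 and 63.7 in replicate 1 and between 18.8 and 61.5 in replicate 2.

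Genes with and without a peak were also set side by side for their surroundings. The nearest gene on the 5' side was on the opposite strand at 18 of 28 genes with a peak and at 15 of 22 without, and the median gap to it was 624.5 and 523.5 bp. A gene on the same strand lay within 500 bp upstream at 2 of 28 and 3 of 22. Peaks were present at 10 of 17 genes on chromosome I, 4 of 9 on II, 5 of 9 on III, 5 of 8 on IV, 3 of 5 on V and 1 of 2 on X. For these neighbour and chromosome counts there are no matching shares over all protein-coding genes, so they are a description only. In the 500 bp upstream of the first start, CGAGTGT was present at 11 of 28 genes with a peak, at 1 of 22 without and at 2.63% of all protein-coding genes. ACCGTA was present at 17 of 28, 8 of 22 and 13.9%, and GGTCTCG at 9 of 28, 9 of 22 and 5.58%. The words were picked in the summit windows of the genes with a peak, most of which lie in this same upstream sequence, so that the difference between the large subunit genes with and without a peak is no support for them. Most rps genes played no part in picking the words. However, rps-10, rps-14 and rps-30 share a summit window with an rpl gene and are among the 19 rps genes with a peak. CGAGTGT was upstream of 3 of these 19 (15.8%) and of 2 of 12 rps genes without a peak (16.7%). ACCGTA was upstream of 7 of 19 (36.8%) and 4 of 12 (33.3%), and GGTCTCG of 4 of 19 (21.1%) and 5 of 12 (41.7%). At the rps genes, then, no word had a share at genes with a peak far above that at genes without one. None of these differences was tested.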

How the data were processed

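Peaks of 2 biological replicates of anti-GFP ChIP-seq were read from lists on ce11. Per the labels, chromatin was sonicated to 200 to 800 bp. The authors called peaks for each replicate against a control, and for both jointly, per the text deposited with the lists. No aligner or peak caller is named there (not given in the sources used here). The signal per peak is the authors' enrichment value. The ranked lists hold the authors' −log10 of the global IDR, limited to 5. No read counts are given, so depth is unknown and no value could be adjusted for it.

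Summits were joined to starts of any transcript of the 19973 protein-coding genes (Ensembl release 115, WBcel235), on 6 nuclear chromosomes. A replicate's value is its overlapping ranked peak of highest signal. Peaks in the mitochondrial genome were left out. Members, words, role groups and named genes (the 10 of highest signal, paralogs, rla genes, those nearest the limit and sharing neighbours) were chosen with earlier results of these data known, so no test was made. Joining was checked on simulated data. Python 3.11.15 and matplotlib 3.10.9 were used.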

Additional observations from a re-analysis of the deposited data

How the results depend on the processing

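The count of 28 genes was the same in the authors' other thresholded set and with summits beside small RNA genes left out. It was 27 with first starts only, 23 with the nearest gene only and 32 with a 1000 bp window. It fell to 6 with 200 bp, 17 with 300 bp, 16 at a global IDR of at most 0.001, and 3 where the peak interval had to cover a start. From 1 replicate's own list it was 21 to 24. The median signal of 153 was 255 with 200 bp, 317 at the stricter IDR and 89.2 to 109 from 1 replicate's list, whose values are on another scale. The median position lay between -287.5 and -239.5 bp under the alternatives run for it. Genes sharing a peak numbered 1 with 200 bp and 22 with 1000 bp, against 12. TAATTA was in 1 window when 100 bp to each side were read, and TTTCAG in 9 against 1. The words chosen after the windows were seen gave 5 (CGAGTGT), 6 (ACCGTA) and 6 (GGTCTCG) in windows of 51 bp, and 11, 14 and 9 with 100 bp to each side. GAGTGT and ACCGTA with 1 base between were in 2 windows of 51 bp and 7 of the wider ones, against 5. No paired analysis was possible because there is a single group. Precision is limited by 2 replicates of unknown depth.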
